A study of Mus musculus with 8 samples.

Results

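The mouse heavy-chain variable (VH) gene families 4, 10, 13 and 15 each hold only a few genes, and their use was read from RNA of cells sorted as pro-B cells. Every VH gene whose name placed it in one of these 4 families was taken from the per-sample counts of reads on heavy-chain gene segments, which gave 7 of the 159 VH genes with reads: IGHV10-1, IGHV10-3, IGHV13-2, IGHV15-2, IGHV4-1 and the pseudogenes IGHV4-2 and IGHV15-1. Assembled heavy-chain contigs were added where all V genes listed for the contig belonged to 1 of the families, which gave 111 contigs, 53 of them with a complete junction. A further 610 contigs listed one of these families together with another family and were not used.

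The cells were primary pro-B cells sorted from bone marrow as B220 and Cd43 positive and IgM and CD25 negative. They came from untreated Setd2 knockout mice (4 samples) and untreated control mice (4 samples), all 8 weeks old. Poly-A RNA was read with 75-base single-end reads, and all 8 samples carry 1 sequencing batch in the labels. The strain and the promoter or Cre line behind the knockout are not given in the sources used here. Since the labels name no animal behind a replicate number, the p-values given here reflect sample-to-sample spread, part of which may be technical.

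In pro-B cells a VH segment is joined to a D and a J segment, and the joined exon encodes the variable domain of the heavy chain. The end of the V segment, from the codon of a conserved cysteine on, forms the start of CDR3, the loop built by the junction. Setd2 encodes a methyltransferase of histone H3, and family 10 is known for its use in anti-DNA antibodies of lupus-prone mice.

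All 7 genes lie on the minus strand of chromosome 12 in the mm10 positions of the files. Family 4 is nearest to the D segments, with IGHV4-1 at chr12:113948284-113948577 and IGHV4-2 at chr12:114013144-114013439, 466 kb and 531 kb from IGHD1-1. Then follow IGHV15-1 at 676 kb (chr12:114158025-114158315), IGHV13-2 at 876 kb (chr12:114357761-114358060), IGHV10-1 at 997 kb (chr12:114479007-114479451), IGHV10-3 at 1041 kb (chr12:114523441-114523887) and IGHV15-2 at 1082 kb (chr12:114564578-114564874). GENCODE M21 annotates IGHV4-2 and IGHV15-1 as V pseudogenes and the other members as V genes. It holds 3 more genes of these families, IGHV10-2, IGHV10-4 and IGHV13-1, which had no row in the counts.

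The last 75 bases of each V exon (GENCODE M21 transcripts, mm10) are shown because they hold both the bases that tell the family 10 genes apart and the germline start of the junction. In the first pair, capitals mark the 3 bases that differ between both genes.

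IGHV10-1 (chr12:114479005-114479079, minus strand): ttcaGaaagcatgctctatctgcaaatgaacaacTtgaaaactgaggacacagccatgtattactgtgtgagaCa

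IGHV10-3 (chr12:114523441-114523515, minus strand): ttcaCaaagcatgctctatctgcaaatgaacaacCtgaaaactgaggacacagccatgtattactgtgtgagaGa

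In the other 3 sequences, capitals mark the bases from the cysteine codon of the junction on.

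IGHV13-2 (chr12:114357759-114357833, minus strand): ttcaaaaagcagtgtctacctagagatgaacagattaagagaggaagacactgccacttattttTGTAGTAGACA

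IGHV15-2 (chr12:114564578-114564652, minus strand): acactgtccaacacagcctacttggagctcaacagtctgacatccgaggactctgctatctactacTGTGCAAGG

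IGHV4-1 (chr12:113948282-113948356, minus strand): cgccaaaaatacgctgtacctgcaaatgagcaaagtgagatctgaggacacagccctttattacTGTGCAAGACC

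The exons of IGHV10-1 and IGHV10-3 differ at 10 of 313 bases (96.8% identity), and 0 of their 239 windows of 75 bases are identical, so a full-length error-free read within the exon separates them. IGHV4-1 and its pseudogene IGHV4-2 differ at 13 of 307 bases (95.8% identity), but their last 113 bases are the same and 39 of 233 windows (16.7%) are identical. The alignment may assign reads of one close VH copy to another, which makes the values of single genes, above all of the family 4 pair, uncertain to that extent.

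Depth differed between samples. Reads on VH genes, by which each share is divided, numbered 25533, 22369, 1637 and 56542 in knockouts 1 to 4 and 39035, 53071, 35505 and 45241 in controls 1 to 4. Knockout 3 stood apart, with 1 read worth 0.0611% of its VH reads and with 92.7% of its constant-region reads on IGHM. VH genes took 1637 of its 12102 heavy-chain locus reads, a smaller part than in any other sample. In knockout 2, the next shallowest, they took 22369 of 41368. Of the constant-region reads, IGHG segments took 2.66% to 14.9% in knockouts and 20.8% to 35.5% in controls, with no overlap, and IGHM took 55.4% to 92.7% in knockouts and 41.4% to 48.02% in controls. IGHA took 4.02% to 34.1% in knockouts and 17.1% to 33.3% in controls, and no row named IGHG2A was present. IGHG and IGHA both mark class-switched B cells, a later stage than the sorted one. Both were read in all 8 samples, so the VH shares need not be those of pro-B cells alone. IGHD, found with IGHM on mature B cells, took 0.467% to 0.759% in knockouts and 0.651% to 0.977% in controls, and IGHE took at most 0.0162% in knockouts and 0.0221% to 0.0702% in controls. Light-chain locus reads, which mark cells past the pro-B stage, numbered 5956 to 144978 in knockouts and 84230 to 118807 in controls. The part of these differences in the results that follow was not tested. In bulk RNA, fewer cells using a gene and less RNA per cell cannot be told apart, and Setd2 RNA was not analysed here.

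The summed share of the 4 families overlapped between the genotypes and was most spread among the knockouts. They held 4.76%, 0.465%, 7.39% and 0.709% of VH reads in knockouts 1 to 4 and 4.56%, 1.20%, 3.24% and 3.73% in controls 1 to 4. The mean share was 3.33% ± 3.35 in knockouts and 3.18% ± 1.43 in controls (SD, n = 4 each). Without knockout 3 the knockout mean was 1.98%.

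The single genes behaved differently from one another. IGHV13-2 was nearly without reads in knockouts, IGHV10-1 had the higher mean share in knockouts and IGHV10-3 in controls, IGHV15-2 was high in 1 knockout, and the shares of IGHV4-1 overlapped. In the edgeR quasi-likelihood test over 130 VH genes with Benjamini-Hochberg adjustment, 0 genes passed an adjusted p of 0.05 in either direction, so 0% of all tested genes and 0 of the 6 tested members were called. At an unadjusted p under 0.05, 1 member was lower (26.2% of all tested genes) and 1 was higher in knockouts (1.54% of all tested genes). DESeq2, run as the alternative, called IGHV13-2 lower and IGHV15-2 higher, where 2.78% of the genes with an adjusted p were called in each direction.

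**Figure D1:**
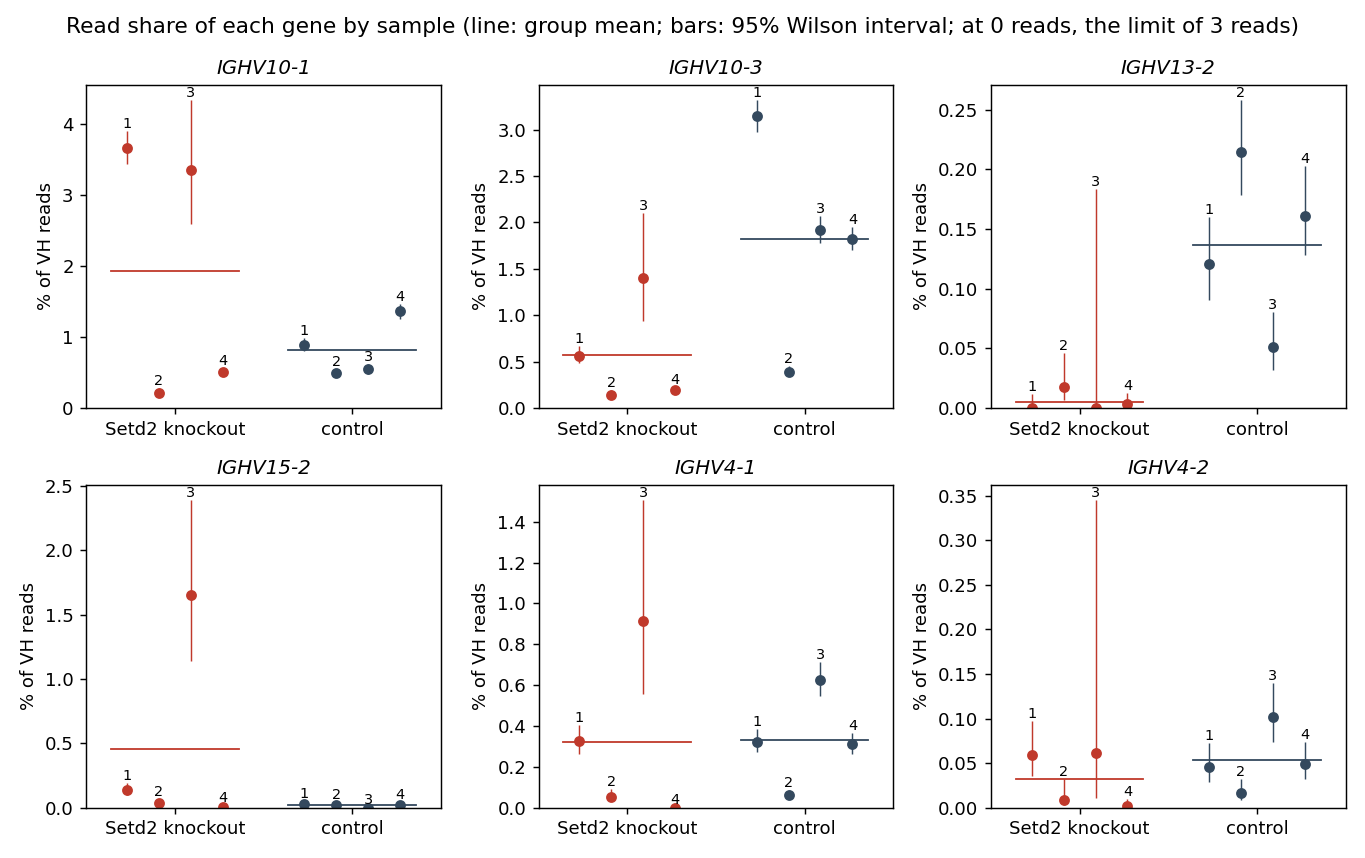
Share of VH reads (y axis, %) of the 6 tested genes in each Setd2 knockout (left) and control (right) sample, numbered by replicate, with 95% Wilson intervals (at 0 reads, the limit that 3 reads set) and a line at the group mean. IGHV13-2 is at or below 0.0179% in every knockout and at or above 0.0507% in every control, and IGHV15-2 stands at 1.65% in knockout 3 alone.

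Family 10 held most of the reads of the 4 families. IGHV10-1 had 937, 48, 55 and 286 reads in knockouts 1 to 4 and 349, 261, 193 and 616 reads in controls 1 to 4. As shares of VH reads this was 3.67%, 0.215%, 3.36% and 0.506% in knockouts and 0.894%, 0.492%, 0.544% and 1.36% in controls. Knockouts 1 and 3 lay above all controls, knockout 2 lay below them, and the groups overlapped. The mean was 1.94% ± 1.83 in knockouts and 0.823% ± 0.401 in controls (SD, n = 4 each), a log2 fold change of 1.22 (SE 0.88, edgeR adjusted p = 0.383). Leaving out knockout 3 gave 1.46% for the knockouts and a log2 fold change of 0.83, and over all settings the adjusted p ran from 0.0832 to 0.820. By mean share it was the VH gene of rank 16 in knockouts and of rank 44 in controls.

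IGHV10-3 lies 44 kb further from the D segments and had a lower mean share in knockouts. It had 144, 30, 23 and 107 reads in knockouts 1 to 4 and 1227, 207, 682 and 826 reads in controls 1 to 4. Its share was 0.564%, 0.134%, 1.41% and 0.189% in knockouts and 3.14%, 0.390%, 1.92% and 1.83% in controls. Control 2 was low among controls, and knockouts 1 and 3 both lay above it, so the groups overlapped. The mean was 0.573% ± 0.587 in knockouts and 1.82% ± 1.13 in controls (SD, n = 4 each), with a log2 fold change of -1.74 (SE 0.90, edgeR adjusted p = 0.208). Leaving out knockout 3 gave 0.296% for the knockouts and a log2 fold change of -2.62 (edgeR adjusted p = 0.0989, over all settings 0.0465 to 0.465). Its rank by mean share was 45 in knockouts and 17 in controls.

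With both genes summed, family 10 took 2.51% ± 2.31 of VH reads in knockouts and 2.64% ± 1.34 in controls (SD, n = 4 each; log2 fold change -0.09, SE 0.86, edgeR adjusted p = 0.976). Relative to its mean, the division between both genes was steadier than the sum among knockouts. Among controls this depends on which of both genes is taken as the share, so no comparison is drawn there. IGHV10-1 made up 86.7%, 61.5%, 70.5% and 72.8% of the family 10 reads in knockouts 1 to 4 and 22.1%, 55.8%, 22.1% and 42.7% in controls 1 to 4. Every knockout lay above every control, and the mean was 72.9% ± 10.4 in knockouts and 35.7% ± 16.6 in controls (SD, n = 4 each). The gap between the lowest knockout and the highest control was small, and the counting intervals of these 2 samples overlapped, from 50.4% to 71.6% in knockout 2 and from 51.2% to 60.2% in control 2 (95% Wilson). This ratio was singled out after the values were seen and has no test. Among all 2337 pairs of VH genes of 1 family with a value in every sample, 13.7% had groups that did not overlap in either direction.

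The contigs allow the same division by sequence. Family 10 contigs were sorted by the base 41 from the 3′ end of the exon, read within the word cttgaaaact of IGHV10-1 or cctgaaaact of IGHV10-3. In knockouts 1 to 4, 4 of 5, 0 of 2, 2 of 3 and 8 of 10 such contigs carried the IGHV10-1 word. In controls 1 to 4 these were 3 of 11, 3 of 6, 2 of 7 and 8 of 15. The 7 of control 3 include contigs of near-identical CDR3s with the IGHV10-3 word, counted separately. The mean over samples was 56.7% ± 38.3 in knockouts and 39.8% ± 13.8 in controls (SD, n = 4 each), so the difference was smaller than the spread among knockouts. Knockout 2, with 2 contigs, lay below every control and the other knockouts above every control, and without it the knockout mean was 75.6%. A further 3 of 23 knockout and 23 of 62 control contigs carried neither word and were left out of these counts. The CDR3 of some of these starts with the germline end of one of both genes. In control 3, a contig of 1 read with the IGHV10-1 word had a CDR3 that starts with the IGHV10-3 end, so the sorting by 1 base is uncertain.

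**Figure D2:**
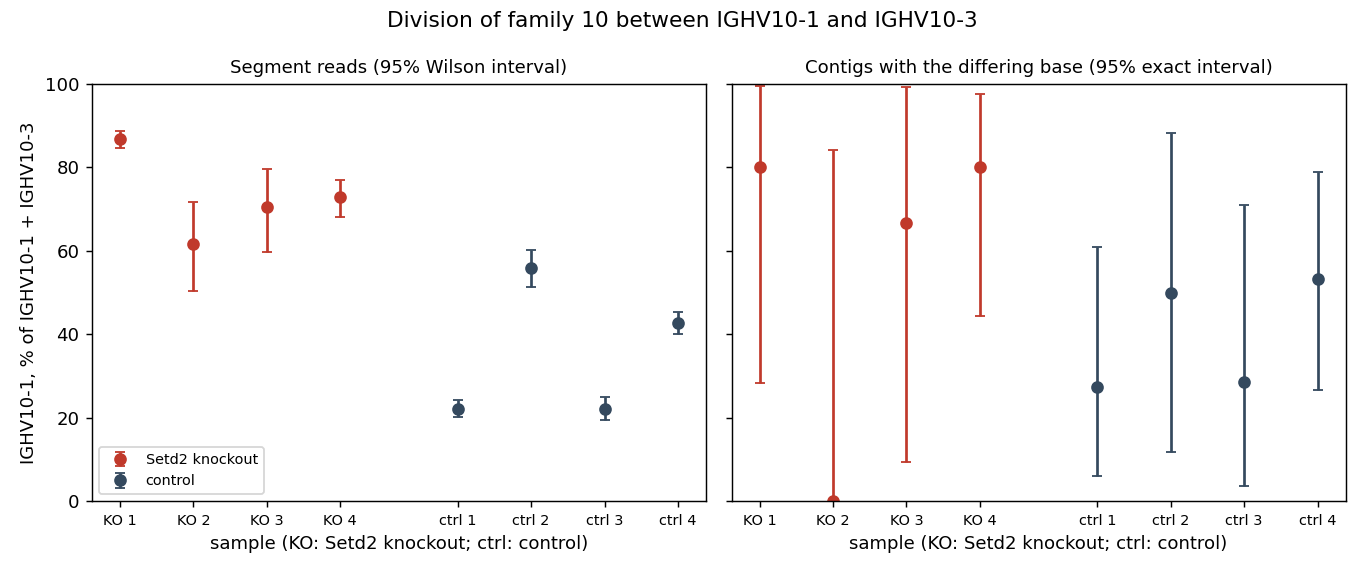
IGHV10-1 as a percent of IGHV10-1 plus IGHV10-3 (y axis) by sample (x axis, Setd2 knockouts left of controls), from segment reads (left panel, 95% Wilson intervals) and from contigs holding the differing base (right panel, exact 95% intervals). In reads the knockouts lie between 61.5% and 86.7% and the controls between 22.1% and 55.8%, and in contigs knockout 2 lies at 0%.

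IGHV13-2 had the lowest p of the members. It had 0, 4, 0 and 2 reads in knockouts 1 to 4 and 47, 114, 18 and 73 reads in controls 1 to 4. The share was 0%, 0.0179%, 0% and 0.00354% in knockouts and 0.120%, 0.215%, 0.0507% and 0.161% in controls. All knockouts were below all controls, the only one of the 6 tested members for which the groups did not overlap, and this held for 24.6% of all tested VH genes in that direction and for 0% in the other. A count of 0 in knockout 3 allows a share of up to 0.183%, above those of controls 1, 3 and 4, so a lower level was not detectable at the depth of that sample. In knockout 1 a count of 0 allows up to 0.0117%, below every control. The intervals and limits cover counting error only.

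The mean share of IGHV13-2 was 0.00535% ± 0.00852 in knockouts and 0.137% ± 0.0692 in controls (SD, n = 4 each). The log2 fold change was -4.36 (SE 1.08, edgeR adjusted p = 0.0514), the second lowest p of 130 genes. The exact two-sided permutation test of the mean share gave an unadjusted p = 0.0286, the smallest p that 4 against 4 samples allow. Every gene whose groups do not overlap gets this p, so it only repeats the lack of overlap given above. The adjusted p fell on either side of the threshold with the analysis settings, from 0.00446 to 0.230. IGHV13-2 was called lower with no filter on reads (3.77% of all genes called lower), with all heavy-chain locus reads as library size (20%), with the IGHV4 and IGHV10 pairs summed (3.12%), without knockout 2 (3.12%) and without control 4 (4%). It met the minimum of 10 reads through the controls alone. Without knockout 3 the log2 fold change was -4.32 (adjusted p = 0.0786).

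IGHV15-2, the member farthest from the D segments, was read in 4 of 4 knockouts and 3 of 4 controls. It had 36, 8, 27 and 5 reads in knockouts 1 to 4 and 12, 13, 0 and 11 reads in controls 1 to 4. The share was 0.141%, 0.0358%, 1.65% and 0.00884% in knockouts and 0.0307%, 0.0245%, 0% and 0.0243% in controls. Knockouts 1 to 3 lay above all controls and knockout 4 lay below 3 of them. The mean of 0.459% ± 0.796 in knockouts, against 0.0199% ± 0.0136 in controls (SD, n = 4 each), rested on knockout 3, the shallowest sample. The log2 fold change was 4.32 (SE 1.44, edgeR adjusted p = 0.0831), higher than that of every other gene tested, and without knockout 3 it was 1.59 (adjusted p = 0.390) and the knockout mean was 0.0619%. Over all settings the adjusted p ran from 0.00451 to 0.390.

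The family 15 contigs did not all carry the sequence of this gene. Of 3 such contigs, none with a complete junction, the one of control 1 matched IGHV15-2 at all 45 V bases. The contig of knockout 3, a single read, differed from IGHV15-2 at 8 of 59 bases, and that of control 3 at 7 of 48 bases. Set against all 183 VH genes of the annotation, both had their fewest mismatches, 4, to other genes, IGHV1-19 for knockout 3 and IGHV1-19 and IGHV1-9 for control 3. The V parts are shown with the mismatches to IGHV15-2 in capitals.

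Knockout 3: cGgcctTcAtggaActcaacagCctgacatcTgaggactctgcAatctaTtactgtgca

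Control 1: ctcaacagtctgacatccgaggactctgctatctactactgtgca

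Control 3: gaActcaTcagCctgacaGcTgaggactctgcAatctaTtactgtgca

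The family 15 contig of knockout 3 thus did not match IGHV15-2 at every base, and contigs listing several families were not used. The 27 segment reads of knockout 3 could not be checked against their sequence here. The family 13 contigs, by contrast, had 0 to 2 mismatches to IGHV13-2 and to no VH gene fewer.

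In family 4 the difference between the genotypes was smaller than the spread of the samples. IGHV4-1 had 83, 12, 15 and 0 reads in knockouts 1 to 4 and 126, 33, 222 and 141 reads in controls 1 to 4. The share was 0.325%, 0.0536%, 0.916% and 0% in knockouts and 0.323%, 0.0622%, 0.625% and 0.312% in controls. Knockout 4, the deepest sample, had no read (up to 0.00531% is allowed), while knockouts 1 to 3 lay within or above the control range or just below it. The log2 fold change was -0.20 (SE 1.24, edgeR adjusted p = 0.939), and it had the other sign with TMM scaling (0.30) and with DESeq2 (0.48). The mean was 0.324% ± 0.420 in knockouts and 0.330% ± 0.230 in controls (SD, n = 4 each), but leaving out knockout 3 gave 0.126% for the knockouts and a log2 fold change of -1.40 (edgeR adjusted p = 0.524, over all settings 0.460 to 0.969).

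The pseudogene IGHV4-2 had 15, 2, 1 and 1 reads in knockouts and 18, 9, 36 and 22 reads in controls 1 to 4, with a log2 fold change of -1.03 (SE 1.05, edgeR adjusted p = 0.529). It followed IGHV4-1 in being scarce in knockout 4, and the share of identical windows means that its reads may in part be those of the gene. The summed pair had a log2 fold change of -0.25 (SE 1.16, edgeR adjusted p = 0.939). The other pseudogene, IGHV15-1, had 1 read each in controls 1 and 2 and none in the other samples, and did not pass the minimum of 10 reads.

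Most VH genes had a negative log2 fold change, with a median of -0.82 over the 130 tested genes. Shares of 1 sample sum to a fixed total, so a change of one gene moves the shares of the others. TMM scaling moved this median to 0.18. Relative to the median of all genes, the log2 fold change was -3.54 for IGHV13-2, -0.92 for IGHV10-3, -0.20 for IGHV4-2, 0.63 for IGHV4-1, 2.05 for IGHV10-1 and 5.14 for IGHV15-2. The median of the 6 members, -0.61, lay close to that of all genes, and the members spanned -4.36 to 4.32 where all genes spanned -6.95 to 4.32.

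**Figure D3:**
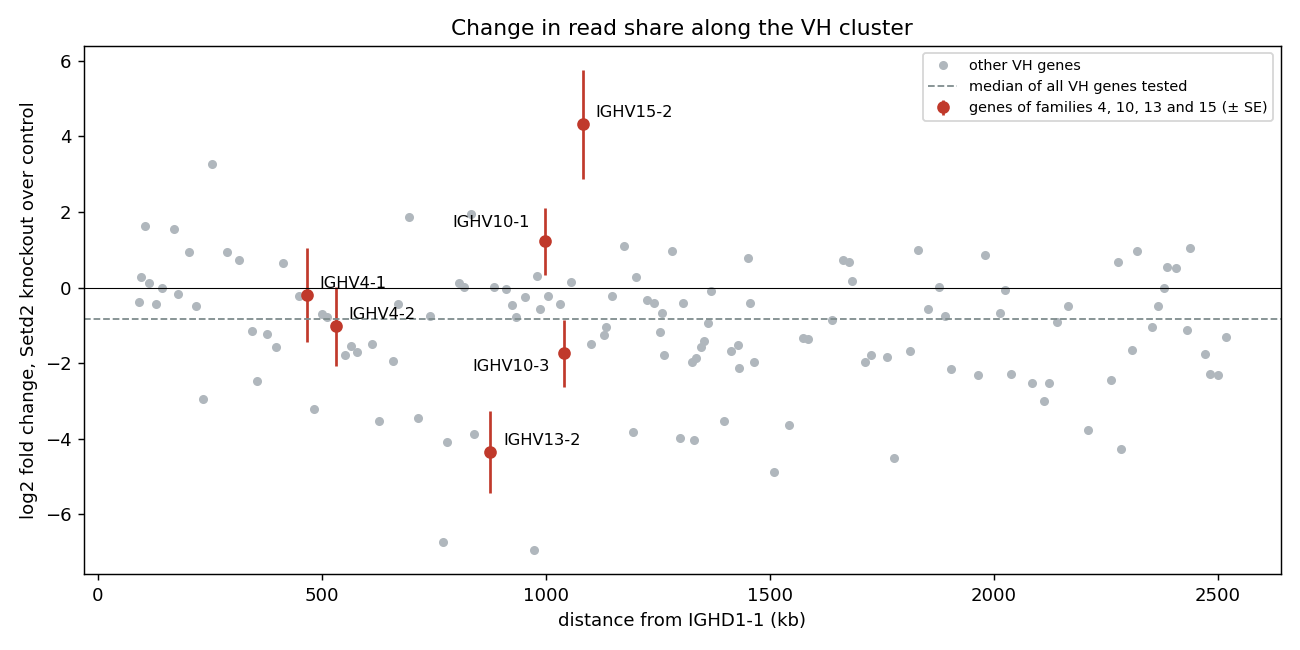
Log2 fold change in read share, Setd2 knockout over control (y axis), of 130 VH genes against their distance from IGHD1-1 in kb (x axis), with the 6 genes of families 4, 10, 13 and 15 in red with their SE and a dashed line at the median of all genes (-0.82). IGHV10-1 at 1.22 and IGHV10-3 at -1.74 lie 44 kb apart on opposite sides of the median.

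The genes beside a member differed in direction for some members and not for others. The 4 neighbours of IGHV4-2 (log2 fold change -1.03) all had negative values, from -1.78 to -0.69, where the median of all genes was -0.82. IGHV1-4 and IGHV1-5, which lie between both family 10 genes, had log2 fold changes of -0.22 and -0.43, and IGHV1-7 beyond IGHV10-3 had 0.15. On the D side of IGHV13-2, IGHV3-8 had a log2 fold change of -3.89 (SE 1.28, edgeR adjusted p = 0.0831) and IGHV3-7 had 1.95 (SE 1.41, edgeR adjusted p = 0.383), while IGHV12-3 and IGHV6-3 on its other side had 0.00 and -0.04. The 4 nearest genes of IGHV15-2 with at least 10 reads ranged from -1.74 to 0.15, and those of IGHV4-1 from -3.21 to 0.64. None of these neighbours was called by edgeR.

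The other families of the middle of the locus (3, 6, 7, 9, 11, 12, 14 and 16) had 27 tested genes. Of these, 0 were called, 8 had an unadjusted p under 0.05 with a lower share in knockouts and 0 with a higher one, and the median log2 fold change was -0.78. The list moved with all VH genes, of which 34 were lower and 2 higher at that level.

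The likeness of VH genes outside the members to each member was measured as the root mean square difference of the centred log2 share over the 8 samples. It is a description only. The members themselves were not candidates, so another member may lie nearer than the genes named. For IGHV13-2, whose own spread on this scale was 1.75, the nearest were IGHV1-66 (0.63), IGHV3-5 (0.90) and IGHV1-47 (0.94). IGHV1-66 too had lower shares in every knockout (0.0392% to 0.130%) than in every control (0.364% to 0.744%). For IGHV10-3, with a spread of 1.54, they were IGHV1-54 (0.59), IGHV1-73 (0.95) and IGHV1-42 (0.95). For IGHV10-1, with a spread of 1.32, they were IGHV5-6 (0.79), IGHV1-77 (0.80) and IGHV1-53 (0.84), so no gene was named for both genes of family 10. The pseudogene IGHV4-2 (spread 1.03) had IGHV1-73 (0.50), IGHV8-5 (0.60) and IGHV1-53 (0.64), and IGHV4-1 (spread 2.02) had IGHV1-19 (1.12), IGHV1-42 (1.13) and IGHV8-12 (1.20). For IGHV15-2, with a spread of 2.12, the nearest genes were the least alike, IGHV1-52 (1.45), IGHV2-5 (1.46) and IGHV1-41 (1.51).

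The assembled junctions count each distinct CDR3 once, where a gene's reads can come from a few abundant rearrangements. A clonotype here is a distinct complete CDR3 sequence. CDR3s that differ by 1 or 2 bases were counted separately, also where they may come from the same rearrangement. In family 10 such CDR3s occurred within controls 3 and 4 and within no knockout, so these control counts may exceed the number of rearrangements. The 4 families had 15 of 560 clonotypes with a single V family in knockouts and 38 of 2307 in controls. Family 10 contributed 2 of 136, 1 of 192, 2 of 51 and 7 of 181 in knockouts 1 to 4 and 8 of 606, 2 of 581, 8 of 511 and 11 of 609 in controls 1 to 4. Knockouts 3 and 4 lay above all controls, and knockout 2 lay between the lowest and the next control. The mean share was 2.45% ± 1.72 in knockouts and 1.26% ± 0.641 in controls (SD, n = 4 each; log2 fold change 0.76, SE 0.63, edgeR adjusted p = 0.554 over 10 families, of which 0% were called). Without knockout 4 the log2 fold change was 0.08.

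Family 4 had 1, 0, 2 and 0 clonotypes in knockouts 1 to 4 and 2, 2, 0 and 2 in controls 1 to 4, too few for the test. Family 13 had 0 in every knockout and 0, 1, 1 and 1 in controls 1 to 4. With incomplete contigs included, it had 0 of 892 in knockouts, which allows up to 0.336%, and 7 of 4074 in controls. The control mean of 0.168% ± 0.135 (SD, n = 4) lies under that limit, so an absence of family 13 in knockouts was not detectable from contigs. Family 15 had 0 complete clonotypes in both genotypes.

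**Figure D4:**
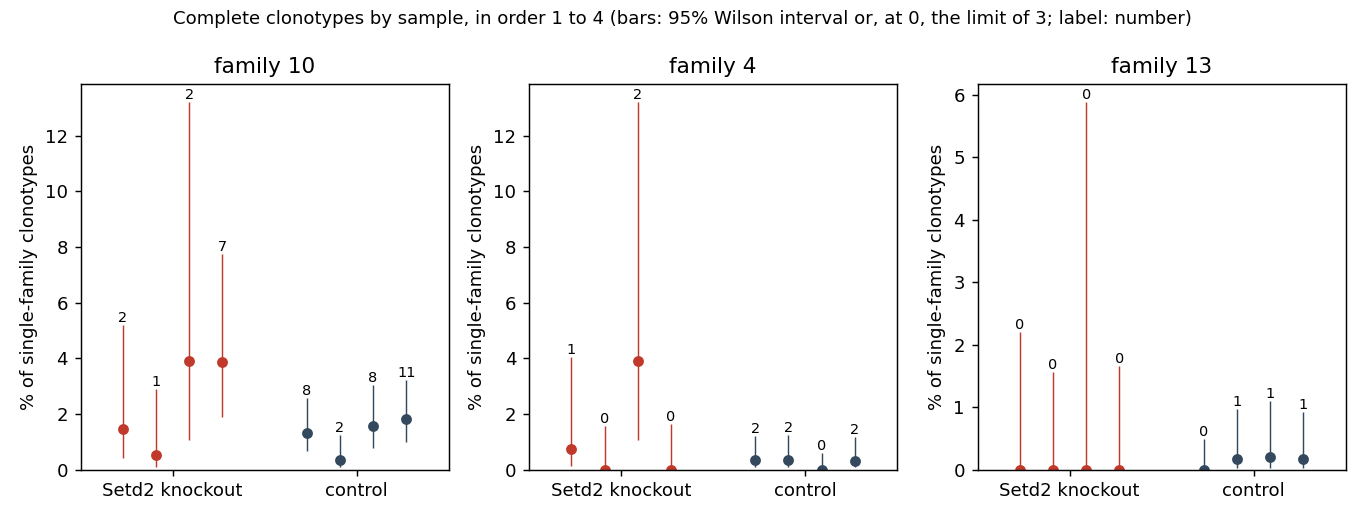
Complete clonotypes of families 10, 4 and 13 as a percent of all clonotypes with a single V family (y axis) in Setd2 knockouts (left) and controls (right), replicates 1 to 4 in order, with 95% Wilson intervals (at 0, the limit that 3 clonotypes set) and the number of clonotypes above each. Knockout 4 has 7 and control 4 has 11 of family 10, and family 13 has none in the 4 knockouts.

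The junctions themselves were of like length. Family 10 CDR3s had a median of 13.5 codons (8 to 14) in knockouts and 13 (6 to 18) in controls, and those of all other families 13 in both. The clonotypes with the most reads in each sample show how the germline ends printed above enter CDR3, with capitals for the bases that match the V segment from the cysteine codon on.

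Knockout 1, family 10: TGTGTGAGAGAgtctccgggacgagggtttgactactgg

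Knockout 2, family 10: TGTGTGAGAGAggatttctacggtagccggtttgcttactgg

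Knockout 3, family 10: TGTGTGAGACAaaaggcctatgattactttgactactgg

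Knockout 4, family 10: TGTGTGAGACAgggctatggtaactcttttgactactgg

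Control 1, family 10: TGTGTGAGggactactactttgactactgg

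Control 2, family 10: TGTGTGAGAGActactactttgactactgg

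Control 3, family 10: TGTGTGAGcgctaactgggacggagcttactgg

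Control 4, family 10: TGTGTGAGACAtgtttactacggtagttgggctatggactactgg

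Control 2, family 13: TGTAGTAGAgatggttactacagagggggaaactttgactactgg

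These leading family 10 clonotypes had 8, 4, 3 and 5 reads in knockouts 1 to 4 and 12, 9, 9 and 6 reads in controls 1 to 4, and that of family 13 in control 2 had 11. In knockout 3, 3 reads made the clonotype 2.5% of the CDR3-spanning reads of the sample, while elsewhere the leading family 10 clonotypes held 0.286% to 0.956%. At least 9 germline bases were kept at the V end in 2 of 2, 1 of 1, 2 of 2 and 7 of 7 family 10 clonotypes of knockouts 1 to 4 and in 6 of 8, 1 of 2, 4 of 8 and 6 of 11 of controls 1 to 4. The control number counts some near-identical CDR3s more than once. In control 3, for instance, the leading CDR3 has a copy 2 bases apart with 8 reads. In family 4 at least 9 bases were kept in 3 of 3 knockout and 4 of 6 control clonotypes, and in family 13 in 2 of 3 control clonotypes. For all other families this was not counted, so no share over all clonotypes can be set beside it. Each sample has few clonotypes, and this feature was singled out after the values were seen.

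The CDR3 of the leading clonotype of control 3 was also found with 1 read in control 4. That of control 2 was found in control 4 too, there in a contig that listed genes of other families. The leading CDR3s of controls 1 and 2, printed above, differ by 1 base. Few of these clonotypes had a constant-region label. IGHA was assigned to 2 of 12 family 10 clonotypes in knockouts, to 2 of 29 in controls and to the family 13 clonotype of control 2. No other constant region was assigned in these families. Labels in all other families were not counted, so no share over all clonotypes can be set beside these.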

How the data were processed

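Setd2 knockout and control pro-B cell samples (4 each) were analysed from the tables deposited per sample. The authors aligned reads with STAR 2.5.1 to mm10, per the submitters' processing notes, and used TRUST per the series design text, with no version named in those sources. The deposited read counts per gene segment and per contig are whole numbers without normalization, and the segment positions overlap the genes of the same name in GENCODE M21 (GRCm38/mm10). The clonal expression score per contig, an estimate per the file headers, was multiplied by the CDR3 length (at least 48 bases) to give CDR3-spanning reads, which came out whole (within 0.01) for 100% of contigs. The depth of the whole libraries is not known, and heavy-chain locus reads ran from 12102 to 100600.

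The members, gene lists and tests were chosen with earlier results of these data known. Named genes were all members, the 2 nearest VH genes with at least 10 reads on each side, and the 3 most alike genes outside the members by log2 of the share plus 0.01%. Named clonotypes were those with the most reads per sample and family and those found in 2 or more samples.

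VH counts with at least 10 reads in all were fitted on the whole table with edgeR 4.0.16 (quasi-likelihood, VH reads as library size, no further scaling) in R 4.3.3, and p-values were Benjamini-Hochberg adjusted with a threshold of 0.05. The fit was checked on simulated data with large known changes in genes above the median share only, so the check does not cover scarcer genes. Alternatives were DESeq2 1.42.0, TMM, other library sizes and filters, each sample left out and a replicate block. Complete CDR3s started with cysteine and ended with tryptophan. Python 3.11.15, pandas 2.3.3, scipy 1.17.1 and matplotlib 3.10.9 were used for the rest. Light-chain contigs were not used here.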

Additional observations from a re-analysis of the deposited data

Results flagged for a closer look

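Within groups of 4, a sample was looked at again when its gap to the nearest other sample passed Dixon's 95% critical value. Of 26 groups of values 4 did so. The 5% that the critical value implies holds for continuous, independent values. Some groups here were all 0 or rested on counts of 0 to 2, so 4 of 26 is not set against it. The share of IGHV15-2 in knockout 3 (1.65%) lay far above the other knockouts, in the shallowest sample. The IGHV10-1 share of the sorted family 10 contigs in knockout 2 (0%) lay far below the other knockouts, and rests on 2 contigs. Complete family 4 clonotypes in control 3 (0%) and complete family 13 clonotypes in control 1 (0%) lay below the other controls, which had 1 or 2 such clonotypes each.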

How the results depend on the processing

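IGHV13-2 kept its direction under every alternative run and passed the adjusted threshold with DESeq2 (log2 fold change -3.22, adjusted p = 0.0279), all heavy-chain locus reads as library size (-4.53), no filter on reads (-4.36), at least 10 reads in at least 4 samples (-4.36, a filter it passed through the controls alone), the replicate block (-4.99) and, added after seeing the data, the IGHV4 and IGHV10 pairs summed (-4.36). The permuted difference of its mean share was -0.131 percentage points. IGHV15-2 passed with DESeq2 (4.84, adjusted p = 0.00451) and was lower with locus reads (2.78, adjusted p = 0.103) and with the replicate block (1.80, adjusted p = 0.270). IGHV10-1 was not called, with 1.99 under TMM, 2.14 with DESeq2, 0.52 with locus reads and 0.50 with the replicate block, and IGHV10-3 passed with locus reads (-2.57, adjusted p = 0.0465, over all settings up to 0.465). IGHV10-3 was -1.02 under TMM and -0.93 with DESeq2, and IGHV4-2 -0.12 and -0.02. IGHV4-1 changed sign with TMM scaling (0.30) and DESeq2 (0.48), and was -1.24 with locus reads and -0.90 with the replicate block. Called VH genes numbered 0 in the reported fit and with TMM, 6 with DESeq2, 26 with locus reads, 6 with no filter, 4 with the stricter filter, 15 with the replicate block (11.5% of genes, all lower) and 4 with the pairs summed. The replicate numbers were not taken as pairs, since the labels give no shared litter or day and deviations of same-numbered samples correlated between -0.046 and 0.097 over the 130 genes. For 3 of 4 knockouts the same-numbered control still correlated best, which is a hint from the data and not from the design.

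With each sample left out, log2 fold changes ran from -5.79 to -3.87 for IGHV13-2 (called without knockout 2 and without control 4), from 0.67 to 1.60 for IGHV10-1, from -2.62 to -1.33 for IGHV10-3, from 1.59 to 4.75 for IGHV15-2, from -1.40 to 0.33 for IGHV4-1 (positive without knockout 2, knockout 4 or control 3) and from -2.67 to -0.48 for IGHV4-2. Called genes ran from 0 to 5, and called families by clonotypes from 0 to 1. The summed share difference ran from -1.21 to 1.10 percentage points. The IGHV10-1 percent of family 10 reads differed by 32.6 to 43.9 points, and by 16.9 points when read from contigs (added after seeing the data). Family 10 clonotypes gave log2 fold changes from 0.08 to 1.23, with 0.42 for clonotypes of at least 2 reads, 0.86 with the replicate block and 0.77 with incomplete contigs. Counting every complete contig changed nothing, since no CDR3 was repeated within a sample. The cause of these changes was not tested. Depth limits IGHV13-2 in knockout 3, where fewer than 3 reads are not told from none.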
